A study of Homo sapiens with 6 samples.

Results

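Amino acids and the sulfonic acid taurine cross the plasma membrane through carriers of the SLC (solute carrier) families, and 10 genes encoding such carriers, or a subunit of one, are described here: SLC7A5, SLC3A2, SLC43A1, SLC1A4, SLC1A5, SLC38A1, SLC38A2, SLC7A1, SLC7A2 and SLC6A6. They were chosen by name, with earlier results of these data known. All of their probe sets (groups of array probes that read a transcript) annotated with that single gene symbol were taken. This gave 40 of the 49293 probe sets that are not controls, and 10 of the 18132 genes with a probe set of their own. No probe set that names several genes names any of the 10.

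The cells were A549, an established human lung adenocarcinoma line grown in DMEM with serum. All 6 arrays carried RNA of this line: 3 came from control cells given a scrambled sequence (titles sh_ctrl) and 3 from cells in which the long noncoding RNA LINC00525 had been silenced (titles sh_LINC00525, called knockdown arrays here). The titles say "sh", while the treatment text speaks of siRNA. In the genotype field LINC00526 stands for knockdown replicate 2 and LINC00527 for knockdown replicate 3; the titles were followed. Time after silencing is not in the labels, and nothing in them says that replicates were separate cultures, so p-values measure only how far these 6 arrays scatter, and that scatter may be technical. The targeted gene was read by 1 probe set near background, at 3.86 ± 0.12 on control and 3.55 ± 0.11 on knockdown arrays (log2 signal, SD, n = 3 each; limma adjusted p = 0.0372). It kept its call only when control replicate 2 or knockdown replicate 1 was the array left out (0.096 to 0.111 for the other 4, limma adjusted p). Of the 5 epithelial markers, KRT18 was at 12.45, KRT8 at 12.02, KRT19 at 9.28, CDH1 at 8.54 and EPCAM at 5.43 on control arrays, where array medians were 5.1 to 5.11. KRT8 fell (-0.15, limma adjusted p = 0.0474) and KRT19 rose (0.29, adjusted p = 0.00409). Of the 5 lung markers AKR1B10 (12.83) and ALDH1A1 (12.45) were high, while SFTPC, SFTPB and NKX2-1 were at 5.97, 5.25 and 5.1, none of the 5 called. Of the 5 leukocyte markers measured, PTPRC and LYZ were at 2.32 and 2.42, inside the range of the 17 Tag probe sets, which match no human transcript (2.27 to 4.60, control means), and CD3E (4.64) and CD14 (6.25) lay above it. CD68, which many other cells also express, was the 1 of the 5 that rose (6.43 to 7.04, limma adjusted p = 0.000465); the part of these markers in the results was not tested. In RNA from whole cultures, fewer cells of a kind and less RNA per cell cannot be told apart.

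Most of these carriers work as exchangers or as sodium-driven pumps, and they are coupled. Sodium-dependent carriers such as SLC38A1, SLC38A2 and SLC1A5 bring in small neutral amino acids including glutamine, and the exchanger SLC7A5 gives some of these up again to bring in leucine and other large essential amino acids. Several of the genes are known targets of ATF4, the transcription factor made when amino acids run short, and leucine and arginine inside the cell feed the growth kinase mTORC1.

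The carriers moved in different directions on silencing. With the arrays normalized to one another as deposited, SLC1A4, SLC7A5 and SLC1A5 fell, by 0.37, 0.21 and 0.17 on the log2 scale, and SLC7A2, SLC38A2 and SLC6A6 rose, by 0.30, 0.22 and 0.19; on a scale set by the hybridization controls the last 3 were at 0.02, -0.06 and -0.09. SLC3A2, SLC7A1, SLC38A1 and SLC43A1 did not pass the test. Of the 10 genes 6 were past the threshold (limma, Benjamini-Hochberg adjusted p under 0.05 over 18132 genes), 3 in each direction, where 12.6% of all genes were: 5.77% rose and 6.83% fell. With only genes of a mean signal of 5 or more tested, 3192 of 10514 passed, among them 6 of the 9 members tested. Each member's change was small, from a 1.30-fold fall to a 1.23-fold rise. The median log2 change of the 10 was 0.07, against -0.01 over all genes. For 9 of the 10 the 3 control and 3 knockdown values did not overlap (6 with knockdown above, 3 below), which was so for 30.8% of all genes.

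The direction of the smaller rises depends on what the arrays are scaled to. Bacterial hybridization controls were higher on the knockdown arrays by 0.28 log2 units and poly-A controls by 0.14, and scaling to them lowers every gene by those amounts. Scaled to the hybridization controls, SLC1A4, SLC7A5 and SLC1A5 were lower by more (-0.65, -0.49 and -0.45, all past the threshold), SLC7A2 was at 0.02, and SLC38A2 and SLC6A6 turned to -0.06 and -0.09, none of these past it. Scaled to the poly-A controls the same genes were at -0.51, -0.35 and -0.31, and at 0.16, 0.08 and 0.05. The median gene was then at -0.29 and -0.15. On the hybridization-control scale 15085 of 18132 genes passed as falls. The SE there was the same 0.096 for SLC7A5, SLC3A2 and SLC7A1, so a p-value on that scale measures a scatter these genes share. Changes given from here on are on the deposited scale unless another is named. Whether the controls or the median gene were the steadier reference was not tested.

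Of the 6 called members SLC1A4 passed with any of the 6 arrays left out, and the other 5 did not. With 1 array left out, 1 to 4 of the 10 genes passed: 1 if control replicate 2 or 3, or knockdown replicate 2, was the one, 2 without control replicate 1, 3 without knockdown replicate 1 and 4 without knockdown replicate 3. With no moderation of the variance 1 passed, SLC1A5. At probe set level 10 of the 40 probe sets passed (6 rose, 4 fell), where 9.85% of all 49293 did, 4.59% up and 5.25% down. With only probe sets of a mean signal of 5 or more tested, 6957 of 25354 passed, among them 15 of the 34 member sets tested. On the hybridization-control scale 0 of the 40 rose and 25 fell, and on the poly-A scale 3 rose and 13 fell. Groups did not overlap for 26 of the 40, 16 with knockdown above and 10 below, against 28.6% of all probe sets. With control replicate 2, control replicate 3 or knockdown replicate 2 left out 3, 3 and 2 of the 40 passed, without control replicate 1 it was 4, and without knockdown replicate 1 it was 6. Probe sets of a gene share their RNA and are not independent.

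**Figure D1:**
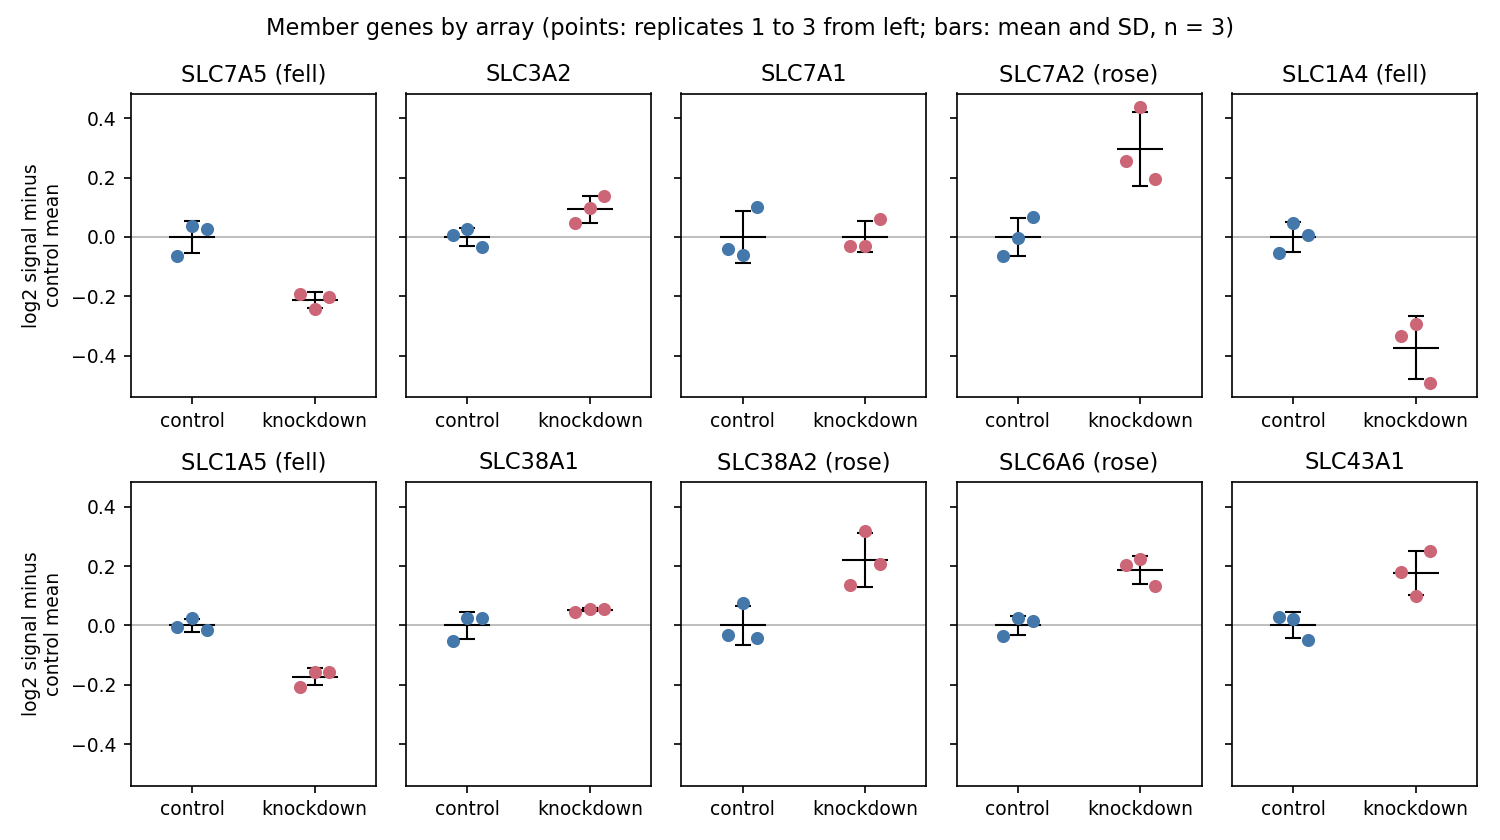
Log2 signal of the probe set that stands for each gene, minus that gene's control mean, on the 3 control (blue) and 3 knockdown (red) arrays, with mean and SD as bars. SLC1A4, SLC7A5 and SLC1A5 lie lower on all 3 knockdown arrays, SLC7A2, SLC38A2 and SLC6A6 higher (scaled to the hybridization controls SLC38A2 and SLC6A6 turn to -0.06 and -0.09), and SLC7A1 is at the same mean of 7.25 in both groups.

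SLC7A5 encodes LAT1, the light chain that carries leucine, phenylalanine and other large neutral amino acids, and SLC3A2 encodes the heavy chain 4F2hc (CD98) that takes LAT1 to the cell surface. SLC7A5 was at 10.01, 10.11 and 10.10 on control replicates 1 to 3 and at 9.88, 9.83 and 9.87 on knockdown replicates 1 to 3 (log2 signal). Every knockdown array lay below every control array, which was so for 17.9% of all genes. The fall was 1.16-fold (log2 -0.21 ± 0.042 SE, 95% interval -0.31 to -0.11, limma adjusted p = 0.0178). Its second probe set, with the suffix _s_at, which marks probes that may match related transcripts, went from 7.51 to 7.17 and just missed the threshold (log2 -0.35 ± 0.092, limma adjusted p = 0.0518 over all probe sets). Leaving out control replicate 2 or 3, or knockdown replicate 2, ended the SLC7A5 call (limma adjusted p of 0.0635 to 0.0694), as did a fit with no variance moderation (0.0506).

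SLC3A2 did not pass the test. It was at 10.56, 10.58 and 10.52 on control and at 10.60, 10.65 and 10.69 on knockdown arrays, a log2 difference of 0.09 ± 0.041 SE (95% interval -0.0013 to 0.19, limma adjusted p = 0.193). The groups did not overlap, with the knockdown arrays above, as for 12.9% of all genes. All 7 SLC3A2 probe sets gave positive differences, 0.05 to 0.12, and 0 of the 7 passed (limma; an unadjusted p under 0.05 was seen for 2 of them). With a mean-dependent, robust variance prior the gene did pass (limma adjusted p = 0.0183), and scaled to the hybridization and poly-A controls it was at -0.19 and -0.05. The log2 signal of SLC7A5 minus that of SLC3A2 was -0.55, -0.47 and -0.42 on control arrays and -0.72, -0.82 and -0.82 on knockdown arrays. The shift of -0.31 in this difference, which no scaling of whole arrays can change, had an exact permutation p of 0.1 (2-sided), the smallest that 3 arrays against 3 allow. With 4 such pairs of members compared, all chosen after values were seen, it was also 0.1 after adjustment.

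SLC43A1 encodes LAT3, a carrier of large neutral amino acids that needs no heavy chain. Its only probe set was dim, at 4.59, 4.58 and 4.51 on control and 4.74, 4.66 and 4.81 on knockdown arrays. The knockdown arrays were all above the control arrays, and the difference of 0.18 ± 0.050 SE just missed the threshold (limma adjusted p = 0.0579; -0.10 on the hybridization-control scale). It passed after cyclic loess (0.19, adjusted p = 0.0362) and where every gene was given the mean of its probe sets (0.18, adjusted p = 0.0407). One of the 17 Tag probe sets had a control mean above it.

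SLC1A4 encodes ASCT1, an exchanger of alanine, serine, cysteine and threonine, and had the largest change of the 10 genes where the brightest probe set stands for each; with probe sets averaged, SLC38A2 (0.34), SLC7A5 (-0.28), SLC7A2 (0.19) and SLC43A1 (0.18) had larger ones than SLC1A4 (-0.17). Its brightest probe set was at 5.79, 5.89 and 5.85 on control arrays and at 5.51, 5.55 and 5.35 on knockdown arrays. The groups were well apart, and the fall was 1.30-fold (log2 -0.37 ± 0.059 SE, 95% interval -0.51 to -0.24, limma adjusted p = 0.00749). Counted from the lowest log2 change it ranked 88 of 18132. With 1 array left out the change ran from -0.41 to -0.31, past the threshold each time. It was not past it without variance moderation (adjusted p = 0.0587).

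The 6 SLC1A4 probe sets did not move alike. A dimmer one went from 4.40 ± 0.096 to 3.88 ± 0.17 (SD, n = 3 each; log2 -0.52 ± 0.088 SE, limma adjusted p = 0.0101 over all probe sets). The other 4 were at -0.13 to 0.05 and did not pass. With the 6 averaged, the gene was at -0.17 and still past the threshold (limma adjusted p = 0.0102).

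SLC1A5 encodes ASCT2, the main glutamine exchanger of many tumour cells, and is the closest relative of SLC1A4 among these genes. It was at 9.38, 9.41 and 9.37 on control and at 9.18, 9.23 and 9.23 on knockdown arrays, with no overlap. This was a 1.13-fold fall (log2 -0.17 ± 0.037 SE, limma adjusted p = 0.0226). The other probe sets, at -0.12 and -0.11, had the same direction without passing (limma adjusted p = 0.104 and 0.184). The replicates of SLC1A5 were tight (SD 0.021 and 0.029), yet with any 1 of the 6 arrays gone it missed the threshold (limma adjusted p of 0.0501 to 0.0846), at log2 changes of -0.18 to -0.16. The SLC1A5 signal minus the SLC1A4 signal, each at its brightest probe set, went from 3.54 ± 0.040 to 3.74 ± 0.12 (SD, n = 3 each; exact permutation p = 0.1, 2-sided, the smallest possible). With probe sets averaged the 2 genes changed more alike, by -0.13 for SLC1A5 and -0.17 for SLC1A4.

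SLC38A2 encodes SNAT2, a sodium-driven carrier of alanine, serine and glutamine known to be raised by amino acid shortage and by hypertonic stress. It was at 10.73, 10.84 and 10.72 on control and 10.90, 11.08 and 10.97 on knockdown arrays. The knockdown values were all higher, by 1.16-fold (log2 0.22 ± 0.058 SE, limma adjusted p = 0.0468; -0.06 on the hybridization-control scale). Its dimmer probe sets gave larger differences. One went from 8.34, 8.47 and 8.40 to 8.55, 9.0 and 8.88 (log2 0.41 ± 0.11 SE, limma adjusted p = 0.049 over all probe sets), and another from 7.76, 7.79 and 7.78 to 7.95, 8.36 and 8.22 (log2 0.40 ± 0.093, adjusted p = 0.0339). Knockdown replicate 1 was the lowest of the knockdown arrays at all 3 probe sets.

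Over all probe sets, where the brightest SLC38A2 set had an adjusted p of 0.0563 (limma), it was not past the threshold. Averaged over its probe sets the gene was at 0.34 (limma adjusted p = 0.0246). Its gene-level call was lost without control replicate 1, 2 or 3 or knockdown replicate 2 or 3 (limma adjusted p of 0.0628 to 0.139). It was also lost when _s_at and _x_at probe sets, none of them its own, were left out of the fit (adjusted p = 0.0509).

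SLC38A1 encodes SNAT1, a carrier close to SNAT2 in substrate range. It was at 9.55, 9.63 and 9.63 on control and 9.65, 9.66 and 9.66 on knockdown arrays, a log2 difference of 0.05 ± 0.039 SE (95% interval -0.037 to 0.14, limma adjusted p = 0.447; -0.23 on the hybridization-control scale, past the threshold there). The other 4 probe sets, from -0.09 to 0.06, were on either side of 0 and did not pass. The SLC38A2 signal minus the SLC38A1 signal was 1.18, 1.21 and 1.09 on control and 1.25, 1.42 and 1.31 on knockdown arrays (exact permutation p = 0.1, 2-sided, the smallest possible).

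SLC7A1 and SLC7A2 encode CAT1 and CAT2, carriers of the cationic amino acids arginine, lysine and ornithine. SLC7A2 was at 6.40, 6.46 and 6.53 on control and 6.72, 6.90 and 6.66 on knockdown arrays. The lowest knockdown array lay above the highest control array. The rise was 1.23-fold (log2 0.30 ± 0.068 SE, limma adjusted p = 0.0288; 0.02 on the hybridization-control scale). A dimmer probe set went from 5.38 to 5.70 (log2 0.31 ± 0.060 SE, limma adjusted p = 0.0163 over all probe sets), and 1 at 0.19 missed the threshold (adjusted p = 0.0591). The dimmest, at 4.07 and 4.04, gave -0.03.

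Averaged over its 4 probe sets SLC7A2 was at 0.19 (limma adjusted p = 0.0136). Its gene-level call was lost without control replicate 1, 2 or 3 or knockdown replicate 1 or 2 (limma adjusted p of 0.0573 to 0.0935). SLC7A1 was at 7.21, 7.19 and 7.35 on control and 7.22, 7.22 and 7.31 on knockdown arrays. The groups overlapped and the means were equal at 7.25 (95% interval of the difference -0.13 to 0.13, limma adjusted p = 1). Its other 3 probe sets gave -0.11, -0.07 and -0.10, none past the threshold. Scaled to the hybridization controls SLC7A1 was at -0.28 and past it (limma adjusted p = 0.00573), which is the shift that scaling gives to every gene. SLC7A2 minus SLC7A1 went from -0.79 ± 0.049 to -0.49 ± 0.17 (log2, SD, n = 3 each; exact permutation p = 0.1, 2-sided, the smallest possible).

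SLC6A6 encodes TauT, the sodium- and chloride-driven carrier of taurine and beta-alanine; taurine is an osmolyte, and the gene is known to respond to tonicity. It was at 9.65, 9.71 and 9.70 on control and 9.89, 9.91 and 9.82 on knockdown arrays. There was no overlap, and the rise was 1.14-fold (log2 0.19 ± 0.041 SE, 95% interval 0.091 to 0.28, limma adjusted p = 0.0258; -0.09 on the hybridization-control scale). A dimmer probe set went from 6.77, 6.86 and 6.80 to 7.0, 7.16 and 7.02 (log2 0.25 ± 0.055 SE, limma adjusted p = 0.0287 over all probe sets). The other 3 gave 0.12, 0.04 and -0.02 and did not pass. With all 5 averaged the gene was at 0.11 and not past the threshold (limma adjusted p = 0.151). It held its call with knockdown replicate 3 left out, but not with any other array left out (limma adjusted p of 0.0683 to 0.0879) or unmoderated variances (0.0564).

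**Figure D2:**
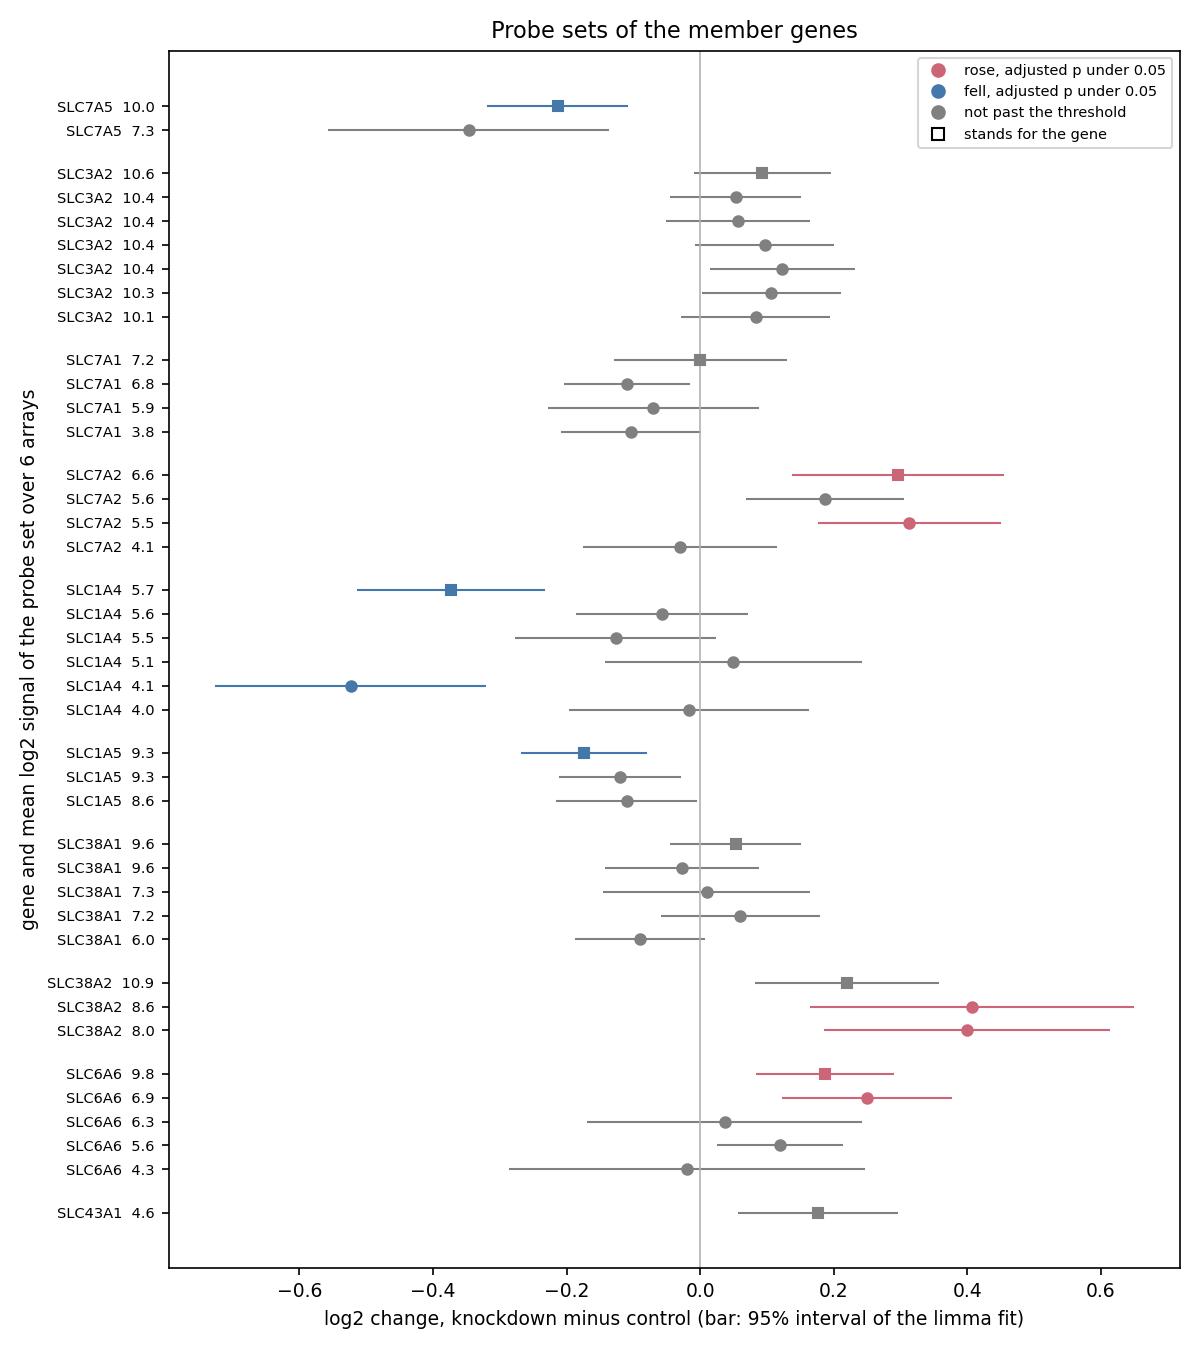
Log2 change of each of the 40 probe sets, knockdown minus control, with its 95% interval from the limma fit over all probe sets; squares stand for the gene, and the number beside each symbol is the mean log2 signal. The 6 that rose belong to SLC7A2, SLC38A2 and SLC6A6 (2 each) and the 4 that fell to SLC1A4 (2), SLC7A5 and SLC1A5; scaled to the hybridization controls, both SLC6A6 sets turn to -0.03 and -0.09.

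Start-site sequences show what the members share outside the array values. The windows run from 250 bases before to 50 after an annotated start and come from RefSeq (GRCh38.p14). The search covered 8 of the 10 genes, 15 windows in all. No window of SLC7A2 or SLC6A6, which both rose, was searched, so the counts below leave them out. The letters TGATGNAA, on either strand, are the core of the C/EBP-ATF response element (CARE), through which ATF4 and its partners act on amino acid response genes. They occurred in 5 windows, 1 each of SLC1A5, SLC1A4, SLC38A1, SLC7A1 and SLC3A2, and in 3.62% of all 35116 windows. By gene, this was 5 of 8 against 4.46% of 27305 genes, where 5 of the 8 had several windows and so more room for a match. SLC7A5, which fell, SLC38A2, which rose, and SLC43A1 held no match. Each stretch of 30 bases is shown with the match in capitals, since both members that fell and members that did not pass hold it.
SLC1A5, chr19:46784893-46784922, minus strand: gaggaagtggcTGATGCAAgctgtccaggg
SLC1A4, chr2:64989381-64989410, plus strand: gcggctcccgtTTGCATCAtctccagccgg
SLC38A1, chr12:46266502-46266531, minus strand: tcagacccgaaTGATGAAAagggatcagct
SLC7A1, chr13:29595663-29595692, minus strand: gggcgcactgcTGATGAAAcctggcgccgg
SLC3A2, chr11:62881719-62881748, plus strand: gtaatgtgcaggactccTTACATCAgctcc
SLC1A5 and SLC1A4, which both fell, share the full 8 letters TGATGCAA (TTGCATCA on the strand shown for SLC1A4). This was 2 of the 8 genes, against 1.08% of all genes (0.866% of windows). A part of these letters in the fall was not tested. The match begins 97 bases before the start for SLC1A5, 7 before it for SLC1A4 and 4 before it for SLC38A1, and at base 8 and base 38 of the transcript for SLC7A1 and SLC3A2. A match is a run of letters and was not tested for binding.

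The E-box CACGTG, the letters bound by MYC and related factors, was in 1 window each of SLC7A5, SLC1A5 and SLC43A1, 3 of 8 genes against 8.77% of all genes (7.26% of windows). The 250 bases before the start are given for SLC1A5, the start whose window holds the CARE match, and for SLC7A5, whose window holds the E-box; matches are in capitals.
SLC1A5, chr19:46784815-46785064, minus strand: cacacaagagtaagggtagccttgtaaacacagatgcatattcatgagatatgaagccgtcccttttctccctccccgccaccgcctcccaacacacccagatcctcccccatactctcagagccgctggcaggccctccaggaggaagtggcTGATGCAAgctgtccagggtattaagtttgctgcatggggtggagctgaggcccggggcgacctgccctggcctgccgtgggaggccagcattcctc
SLC7A5, chr16:87869508-87869757, minus strand: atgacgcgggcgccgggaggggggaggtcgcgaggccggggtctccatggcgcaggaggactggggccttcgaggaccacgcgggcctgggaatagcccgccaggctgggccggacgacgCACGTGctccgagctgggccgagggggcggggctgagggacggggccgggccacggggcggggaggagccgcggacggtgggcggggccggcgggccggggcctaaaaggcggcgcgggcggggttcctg
The SLC7A5 stretch is 79.6% G and C, and that of SLC1A5 59.6%. SLC1A5 has 3 annotated starts, and its E-box lies in the window of another of them, beginning 50 bases before that start.

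Of 35 measured genes for other amino acid carriers of the plasma membrane 2 rose and 0 fell (5.71%, against 12.6% of all genes), with a median log2 change of -0.01. On the hybridization-control scale 0 rose and 30 fell, and on the poly-A scale 0 rose and 17 fell. The 2 were SLC6A14, a broad neutral and cationic carrier (3.10 to 3.35, with 5 of the 17 Tag probe sets above its control mean; limma adjusted p = 0.025), and SLC1A1, the glutamate carrier EAAC1 (5.02 to 5.26, adjusted p = 0.0407). Scaled to the hybridization controls they were at -0.02 and -0.04. Leaving out control replicate 1 or 2, or knockdown replicate 1 or 3, ended the SLC6A14 call (limma adjusted p of 0.0591 to 0.0734), and leaving out any array ended that of SLC1A1 (0.0592 to 0.124). Without control replicate 1 or 2 or knockdown replicate 1 or 3 the list had 0 calls. Of the 35, 21 had a mean signal under 5, against 1 of the 10 members. The brightest were SLC7A11, the cystine exchanger xCT and also a partner of SLC3A2 (10.24 ± 0.057 on control, 10.19 ± 0.021 on knockdown arrays, SD, n = 3 each), SLC6A9, the glycine carrier GlyT1 (6.98 and 6.99), and SLC7A7 (6.65 and 6.58), none past the threshold (limma adjusted p = 0.457, 0.918 and 0.482). Against the hybridization controls all 3 fell, to -0.34, -0.27 and -0.35 (limma adjusted p = 0.00121, 0.00748 and 0.00074), where the median gene was at -0.29. Against the poly-A controls SLC7A11 (-0.20, 0.012) and SLC7A7 (-0.21, 0.0278) did, where the median gene was at -0.15.

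Of 21 genes for carriers of lysosomes and mitochondria 0 rose and 1 fell (4.76%, against 12.6% of all genes; 0 rose and 19 fell against the hybridization controls). The call was the mitochondrial carrier SFXN2 (5.47 to 5.21, limma adjusted p = 0.0242; not past it with control replicate 1 or 3, or knockdown replicate 2, left out, at 0.0765 to 0.0803). Without control replicate 1 or knockdown replicate 2 the list had 0 calls, and after cyclic loess 1 of its genes rose.

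The list for amino acid sensing through GCN2, ATF4 and mTORC1, not all of them sensors, included the largest change among the lists. Of 42 measured genes 9 rose and 2 fell (26.2%, against 12.6% of all genes), with a median log2 change of 0.01. A mean signal under 5 was seen for 4 of the 42, against 7618 of all 18132 genes. Those not called, 31 in all, ran from a log2 change of -0.15 (RRAGB, limma adjusted p = 0.196) to 0.23 (SESN2, 0.0791). The genes that give the list its name were among them: EIF2AK4, which encodes GCN2 (6.54 on control, 6.56 on knockdown arrays), ATF4 (10.93 and 10.94) and MTOR (7.18 and 7.19). Whether the amino acid response changed was not tested. DDIT3, the stress transcription factor CHOP, was at 5.15, 5.14 and 5.06 on control and at 6.34, 6.47 and 6.45 on knockdown arrays (log2 1.30 ± 0.049 SE, limma adjusted p = 7.82e-06). CASTOR1, the arginine sensor that restrains mTORC1, rose from 5.29 ± 0.035 to 5.87 ± 0.055, and RRAGD, a Rag GTPase that places mTORC1 on the lysosome, from 6.96 ± 0.060 to 7.32 ± 0.090 (SD, n = 3 each; limma adjusted p = 0.000227 and 0.00648). ATF5, a transcription factor of the ATF4 branch, fell from 6.41 ± 0.045 to 6.05 ± 0.025 (limma adjusted p = 0.00165). CASTOR2, the relative of CASTOR1, fell from 6.28 to 6.08 (limma adjusted p = 0.0189; 0.0582 to 0.0659 with control replicate 1 or 2, or knockdown replicate 2 or 3, left out). DDIT3, CASTOR1, RRAGD and ATF5 passed with any array left out. Without control replicate 2 or without knockdown replicate 2 the list had 7 calls. Scaled to the hybridization controls it had 2 rises and 28 falls, with RRAGD at 0.09 and not called.

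Of 25 measured enzymes that handle the transported amino acids 1 rose and 2 fell (12%, near the 12.6% of all genes; 1 rose and 21 fell against the hybridization controls). ASS1, the arginine-making enzyme argininosuccinate synthase, rose from 6.96 ± 0.046 to 7.49 ± 0.058 (SD, n = 3 each; limma adjusted p = 0.00049), and passed with any array left out and under both control scalings. MAT2A, which makes S-adenosylmethionine from methionine, fell from 10.79 to 10.59 (limma adjusted p = 0.0104; 0.0867 with its probe sets averaged). SHMT1, the cytosolic serine hydroxymethyltransferase, fell from 8.48 to 8.30 (limma adjusted p = 0.0244), but not with any 1 array left out (0.0537 to 0.0823).

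Of 17 measured genes of taurine synthesis and osmolyte handling 1 rose and 1 fell (11.8%, near the 12.6% of all genes; 0 rose and 12 fell against the hybridization controls). SGK1, a kinase induced by hypertonic stress and known to raise the activity of several of these carriers, rose from 7.96 ± 0.029 to 8.26 ± 0.091 (SD, n = 3 each; limma adjusted p = 0.00979; log2 change of 0.31, and 0.03 on the hybridization-control scale). LRRC8D, a subunit of the volume-regulated anion channel that lets taurine out, fell from 7.99 to 7.71 (limma adjusted p = 0.0156; 0.0535 to 0.0627 with control replicate 2 or 3 left out, and 0.0839 with its probe sets averaged). Without control replicate 2 or 3 the list had 1 call.

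Among 9 genes for regulators of the carriers or of their genes, and for partner proteins, 3 rose and 0 fell (33.3%, against 12.6% of all genes called and 5.77% that rose). Against the hybridization controls 0 rose and 4 fell. Of the 9, 0 had a mean signal under 5, against 7618 of all 18132 genes. NEDD4 and NEDD4L, ubiquitin ligases that take carriers off the cell surface, went from 8.10 to 8.40 and from 7.21 to 7.42 (limma adjusted p = 0.0461 and 0.0273). MYC, a transcription factor known to raise SLC7A5 and SLC1A5, went from 8.90 to 9.08 (limma adjusted p = 0.0264). Those 2 genes fell, and a part of MYC in their change was not tested. Scaled to the hybridization controls NEDD4, NEDD4L and MYC were at 0.02, -0.07 and -0.10. Their calls were lost for NEDD4 on leaving out any array but control replicate 2 (limma adjusted p of 0.0761 to 0.128), for NEDD4L on leaving out control replicate 1 or 3, or knockdown replicate 2 or 3 (0.0719 to 0.0905), and for MYC without any but knockdown replicate 1 (0.0544 to 0.0828). These calls rest on the brightest probe set of each gene. The dimmer NEDD4 sets changed by 0.33 and 0.59 with no overlap of groups (probe set fit by limma, adjusted p = 0.0115 and 0.00114). In that fit the brightest NEDD4 set missed the threshold (0.0512). Of the 7 NEDD4L sets only the brightest was called, and their average, at 0.13, was not (limma adjusted p = 0.051). The list of 9 genes had 0 calls with control replicate 1 or 3, or knockdown replicate 2 or 3, left out.

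**Figure D3:**
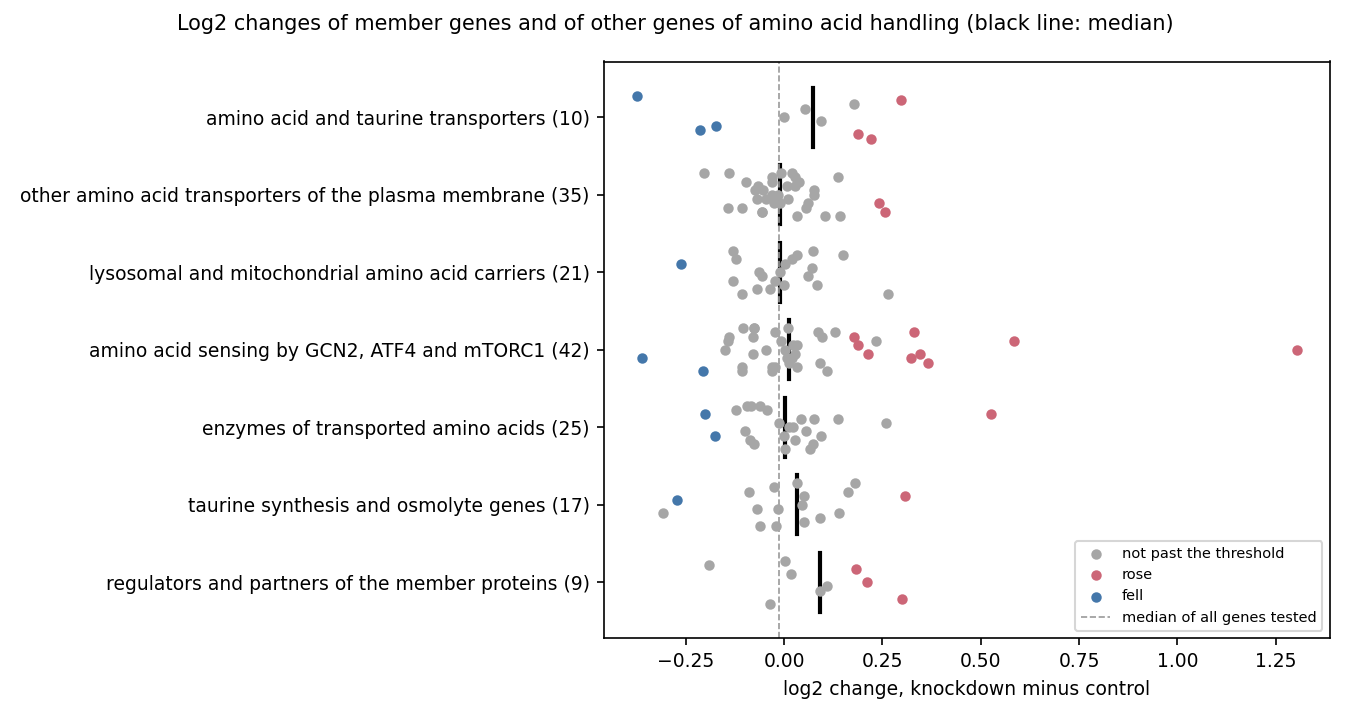
Log2 change, knockdown minus control, of the 10 member genes and of the measured genes of 6 other lists, with the number measured in brackets, the list median as a black line and the median of all 18132 genes (-0.01) dashed. Grey points did not pass the test. Of the member genes 3 lie on either side as calls, and 33 of the 35 other plasma membrane carriers are grey. Of those 35, 21 had a mean signal under 5, against 1 of the 10 members, and members were chosen with earlier results known. Scaled to the hybridization controls all points shift left by 0.28.

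**Figure D4:**
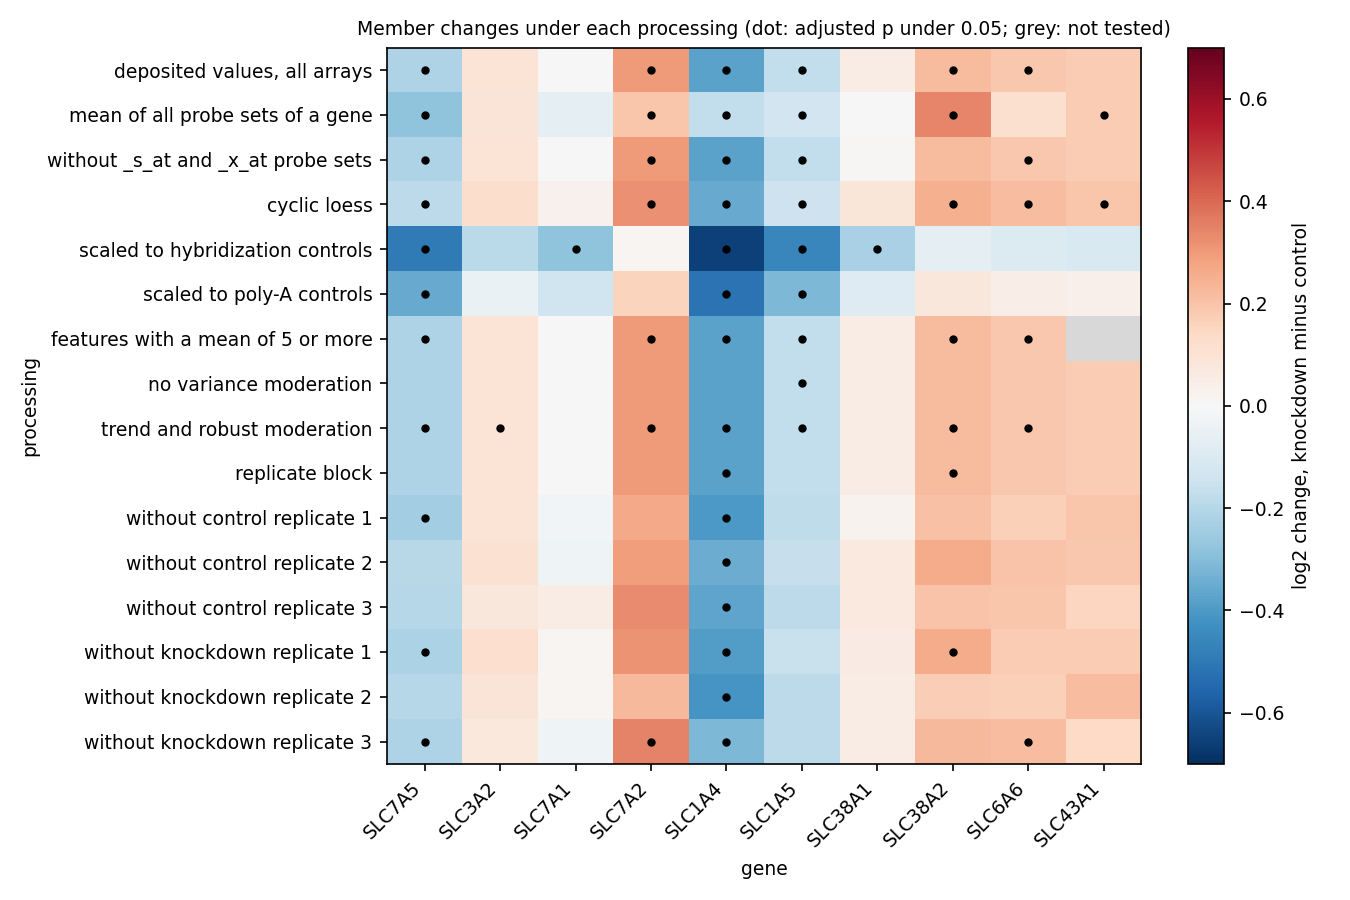
Log2 change of each member gene (colour) under the 16 ways of processing, with a dot where the limma adjusted p was under 0.05 and grey where the gene was filtered out. SLC1A4 is blue in every row and dotted in all but the one without variance moderation, whereas SLC38A2, SLC6A6 and SLC43A1 turn from red to blue when scaled to the hybridization controls.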

How the data were processed

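The authors deposited log2 signals for 49372 probe sets, made with RMA per the submitters' processing notes, a method that quantile-normalizes arrays to one another, from biotin-labelled cRNA made from 100 ng of total RNA. The design text speaks of RNA sequencing, but the values are array signals. Array medians were 5.10 to 5.11, so values were not normalized again. The number of arrays limits the precision.

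Gene names came from GEO's platform annotation, with symbols updated by gene identifier (44961 of 44988 matched). The probe set with the highest mean over the 6 arrays stood for a gene. The test was limma's (version 3.58.1, R 4.3.3; lmFit and eBayes, 2-sided, no covariate), once over 18132 genes and once over 49293 probe sets, each with Benjamini-Hochberg adjustment and 0.05 as the threshold. Exact permutation tests used the 6 values. On simulated data with 200 of 18132 genes changed, 9% of changes of 0.2 log2 units and 60% of those of 0.3 were called, with 1 false call among 70. In the data 2285 genes passed, so the Benjamini-Hochberg cutoff on p was another, and these shares do not carry over. Figures were drawn with matplotlib 3.10.9.

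The members and lists were chosen with earlier results of these data known. Named were all members and, of each other list, the 3 largest called rises and the 3 largest called falls, where there were as many, plus the 3 brightest other plasma membrane carriers and LINC00525. EIF2AK4, ATF4, MTOR, RRAGB and SESN2, none of them called, were named outside this rule. The 4 pairs of members, each of related proteins or partners, were chosen after values were seen. Alternatives were other probe set rules, cyclic loess, scaling to control probes, a filter at a mean of 5, other variance priors, a replicate block and leaving out each array.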

Additional observations from a re-analysis of the deposited data

How the results depend on the processing

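Values are log2 changes unless called counts; where no cause is named, the cause was not tested. Of the settings tried, scaling to control probes moved most. On the hybridization-control scale 15317 genes (232 up, 15085 down), 40795 probe sets, 25 member probe sets (0 up, 25 down) and 116 genes of the 6 lists (3 up, 113 down) passed; SLC7A1 was at -0.28, past the threshold, SLC7A2 at 0.015, and SLC3A2 (-0.19), SLC38A1 (-0.23), SLC38A2 (-0.061), SLC6A6 (-0.095, and -0.031 at its second called probe set), SLC43A1 (-0.10), SLC6A14 (-0.025), SLC1A1 (-0.041), SLC6A9 (-0.27), NEDD4L (-0.071) and MYC (-0.098) changed sign. On the poly-A scale 8894 genes (497 up, 8397 down), 21673 probe sets, 3 member genes, 16 member probe sets (3 up, 13 down) and 67 list genes (8 up, 59 down) passed; SLC3A2 (-0.048), SLC38A1 (-0.088) and SLC6A9 (-0.13) changed sign, and SLC7A2 (0.16), SLC38A2 (0.079) and SLC6A6 (0.046) lost their calls.

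Without moderation 1314 genes, 2295 probe sets, 1 member gene, 2 member probe sets and 13 list genes passed, and SLC7A5 (-0.21), SLC7A2 (0.30), SLC1A4 (-0.37), SLC38A2 (0.22) and SLC6A6 (0.19) did not. With a trended, robust prior the counts were 3502, 8064, 7, 18 and 36, and SLC3A2 passed (0.093). With probe sets averaged SLC6A6 did not pass (0.11), SLC43A1 did (0.18) and SLC6A9 was at -0.06. Without _s_at and _x_at sets SLC38A2 (0.22) did not pass and SLC7A11 was at 0.023. After cyclic loess SLC43A1 passed (0.19), and 58.7% of called genes were rises, against 45.8% on the deposited scale.

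With the replicate number as a block 2 member genes passed, and SLC7A5 (-0.21), SLC7A2 (0.30), SLC1A5 (-0.17) and SLC6A6 (0.19) did not; 1564 genes passed in all. With each gene's group mean taken off, same-numbered control and knockdown arrays correlated at 0.092, 0.058 and -0.010. Differently numbered ones correlated at -0.10 to 0.046, and not every array correlated best with its own number. Whether same-numbered arrays shared a batch was not tested.

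With each array left out in turn, 1104 to 1575 genes, 2215 to 3549 probe sets, 1 to 4 member genes, 2 to 7 member probe sets and 12 to 17 list genes passed. The member changes then ran from -0.24 to -0.20 for SLC7A5, 0.23 to 0.35 for SLC7A2, -0.18 to -0.16 for SLC1A5, 0.17 to 0.26 for SLC38A2 and 0.17 to 0.21 for SLC6A6, and SLC6A9 from -0.018 to 0.037. Of the 30 member probe sets that did not pass, 12 passed in some alternative other than the control scalings. Signals near those of the Tag probe sets limit what could be seen for SLC43A1 and SLC6A14.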
